A study of Mus musculus with 15 samples.

Results

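The genes followed here are 10 surface and niche receptors of mouse muscle stem cells (MuSCs, also called satellite cells): Itga7, Vcam1, Sdc3, Sdc4, Cdh15, Calcr, Cxcr4, Megf10, Chodl and Ncam1. They were picked by gene symbol from the 56953 genes of the deposited tables, and all 10 were found. Bulk RNA sequencing gave 15 libraries from wild-type mice of strain 129, labelled male and 10 weeks old. MuSCs were taken by biopsy from mice 5, 6 and 11 before the animals received their own MuSCs back (3 libraries), and again after that transplantation, from muscle that had not been given cells (3 libraries). Quadriceps femoris muscle was taken from 6 transplanted mice (4, 5, 6, 11, 14 and 94) and from 3 mice after sham surgery (3, 12 and 192). Libraries are named by group and mouse, such as after 5 or sham 12. The treatment entry of the shams also names transplantation, so their titles were used. How MuSCs were purified, whether they were cultured, and the time between transplantation and sampling are unstated in the sources used here.

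MuSCs sit between the muscle fibre and its basal lamina, and receptors on their surface hold them there and keep them quiescent. Itga7 is the integrin chain that, with Itgb1, binds laminin of the basal lamina, and Cdh15 (M-cadherin) joins the MuSC to the fibre. Calcr, the calcitonin receptor, is a G protein-coupled receptor that is found on quiescent MuSCs, keeps them quiescent and is lost upon activation. The other receptors serve adhesion, growth factor binding and chemotaxis, as given beside each below.

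Promoters are shown for Cdh15, which was higher in MuSCs than in muscle, and for Calcr and Chodl, which were lower, so that their letters can be read beside the values. RefSeq promoters on GRCm38.p6 matched 6 of the 10 genes (Cdh15, Calcr, Chodl, Cxcr4, Sdc3 and Sdc4). Each sequence is the 250 bases before an annotated start, 5′ to 3′ on the gene's strand. Capitals mark every match to the E-box CANNTG, the element that myogenic basic helix-loop-helix factors such as Myod1 bind, searched on both strands.
Cdh15, chr8:122848124-122848373, + strand: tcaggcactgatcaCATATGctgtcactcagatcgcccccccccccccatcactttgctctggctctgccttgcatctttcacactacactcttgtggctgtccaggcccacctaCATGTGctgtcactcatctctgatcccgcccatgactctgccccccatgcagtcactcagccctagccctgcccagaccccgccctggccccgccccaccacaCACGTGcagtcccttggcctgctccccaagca
Chodl, chr16:78930698-78930947, + strand: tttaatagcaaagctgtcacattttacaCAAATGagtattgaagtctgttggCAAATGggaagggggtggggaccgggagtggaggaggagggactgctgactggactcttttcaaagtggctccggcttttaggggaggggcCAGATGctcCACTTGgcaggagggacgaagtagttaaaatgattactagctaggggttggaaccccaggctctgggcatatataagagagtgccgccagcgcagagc
Calcr, upstream start, chr6:3764714-3764963, - strand: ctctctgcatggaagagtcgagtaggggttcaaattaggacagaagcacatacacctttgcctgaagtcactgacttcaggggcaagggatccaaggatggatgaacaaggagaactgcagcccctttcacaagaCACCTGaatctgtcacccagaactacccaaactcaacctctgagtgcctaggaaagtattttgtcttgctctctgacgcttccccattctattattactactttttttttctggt
Calcr, downstream start, chr6:3763624-3763873, - strand: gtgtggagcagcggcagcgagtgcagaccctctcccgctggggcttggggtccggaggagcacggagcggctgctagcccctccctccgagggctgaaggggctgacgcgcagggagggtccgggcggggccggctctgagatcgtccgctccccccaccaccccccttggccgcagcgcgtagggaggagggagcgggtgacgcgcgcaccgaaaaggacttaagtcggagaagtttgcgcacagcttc

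Cdh15 held 3 matches to CANNTG, Chodl 4, the upstream Calcr start 1 and the downstream Calcr start 0. The promoters of Cxcr4, Sdc3 and Sdc4, which were also higher in MuSCs, held 0 each, and 66.2% of 32851 promoters of this length held at least 1. The stricter form CAGCTG was in none of the windows of these 6 genes and in 13.0% of all promoters. The GC content was 62.0% for Cdh15, 52.0% for Chodl, 46.0% for the upstream and 70.8% for the downstream Calcr start, against a median of 52.4% over all promoters. These are letter matches only and show no binding.

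Library totals ran from 17.09 to 22.98 M estimated counts (M, counts in units of 1e6). Counts of Xist exceeded the summed counts of 4 Y-linked genes in 14 of the 15 libraries, against the label of male. The exception, transplanted 4, had 2 Xist counts and 17 Y-linked counts. Those 17 lay inside the 14 to 22.2 Y-linked counts of transplanted 14 and 94 and sham 3 and 192, which had Xist. They are thus no sign of a male either. Pax7, which marks MuSCs, was at 11.8 to 21.6 TPM (a level scaled for gene length and library size) in the 6 MuSC libraries and at 0.06 to 0.26 TPM in the 9 muscle libraries, and Myod1, which marks activated MuSCs and myoblasts, was at 532 to 958 TPM in the MuSC libraries. Of the markers of other cell types, Ptprc, Adgre1 and Cd3e (leukocytes), Emcn and Tie1 (endothelium), Dcn and Dpp4 (fibroadipogenic cells), Sox10 (Schwann cells) and Tnmd and Kera (tenocytes) had 0 counts in all 6 MuSC libraries. Other genes of these marker lists were present there. The 6 tenocyte markers summed to 44.0 to 74.9 TPM in MuSC and 8.32 to 44.4 TPM in muscle libraries, and the 6 pericyte and smooth muscle markers to 172 to 1060 TPM in MuSC and 112 to 152 TPM in muscle libraries. Scx and Acta2 had the highest mean CPM of these lists in MuSCs. The 9 fibroadipogenic markers summed to 44.5 to 237 TPM in MuSC libraries, Col3a1 among them, and 8 mature myofibre genes to 368 TPM in after 11 and 2214 to 4849 TPM in the other 5. What part such cells have in the receptor levels was not tested. The 6 MuSC libraries carry names of 2 styles: those of before 5, before 11 and after 5 begin with the mouse number, and those of before 6, after 6 and after 11 begin with the letter F. Neither style matches a group, and the sources used here do not say what the styles stand for.

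The receptors fell into 3 patterns of level. Itga7, Vcam1, Sdc3, Sdc4, Cdh15, Cxcr4, Megf10 and Ncam1 were higher in each of the 6 MuSC libraries than in any of the 9 muscle libraries, Chodl was lower in each of them, and Calcr was at 0 in 5 of them and above 0 in every muscle library. The tables of MuSCs and muscle were deposited separately and the genes are known MuSC markers, so these levels are a description with no test. How large a share of all genes splits MuSC from muscle libraries was not computed, so the split is not read as a mark of the receptors. In whole muscle, fewer cells of a type and less RNA per cell cannot be told apart.

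**Figure D1:**
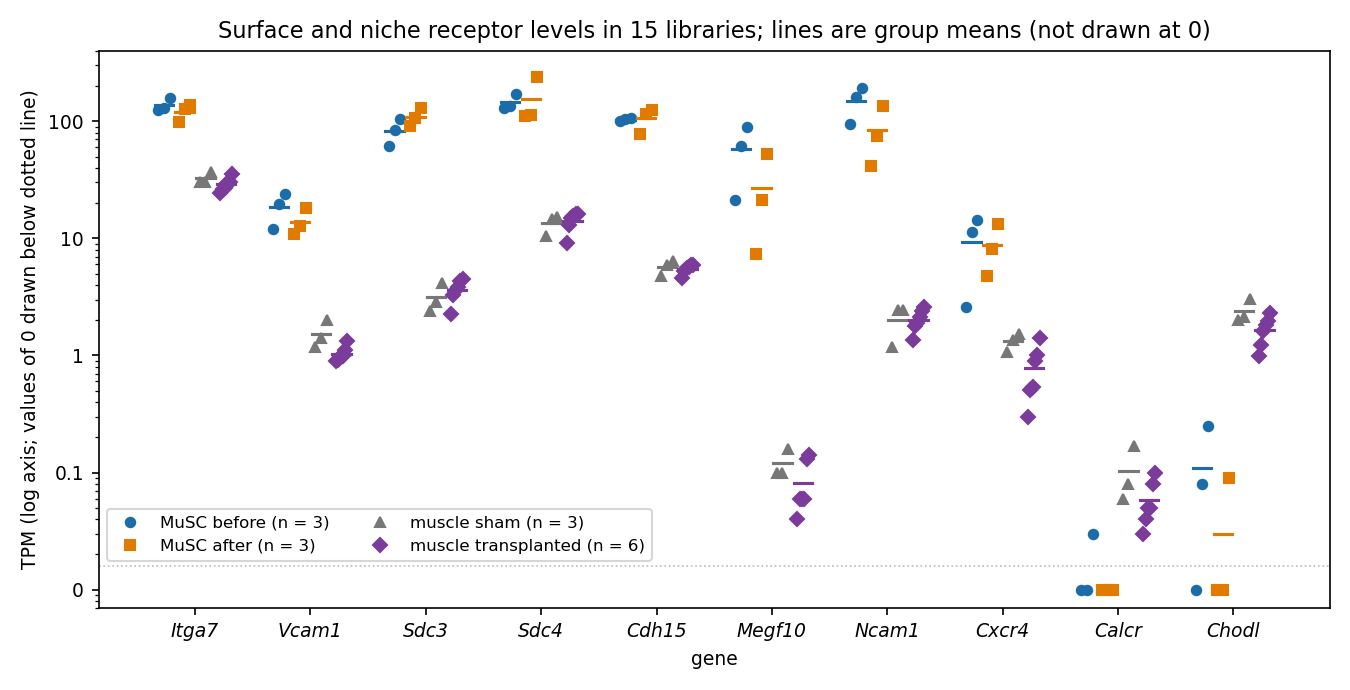
TPM on a log axis for each of the 10 receptors (x axis) in each library, with MuSCs before and after transplantation and sham and transplanted muscle as separate symbols and short lines for group means. Megf10 spans the widest gap between MuSCs and muscle, and Calcr and Chodl are the genes that lie lower in MuSCs.

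Among the adhesion receptors, Itga7 (ENSMUSG00000025348.11, chromosome 10) was at 158, 130 and 124 TPM in before 5, 6 and 11 and at 97.6, 127 and 137 TPM in after 5, 6 and 11. In muscle it was at 30.4, 30.4 and 36.7 TPM in sham 3, 192 and 12, and at 24.45 (lowest), 28.5 (median) and 35.6 TPM (highest) in the transplanted mice. Itga7 was thus the most abundant of the 10 in muscle, and its mean over MuSC libraries was 4.27 times that over muscle, the smallest ratio among the 8 receptors that were higher in MuSCs. Muscle fibres also carry this integrin at their junctions with tendon and nerve.

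Cdh15 (ENSMUSG00000031962.7, chromosome 8) was at 105, 100 and 106 TPM before and at 78.3, 125 and 115 TPM after in mice 5, 6 and 11. Its levels in muscle were 4.73, 6.47 and 5.96 TPM in sham 3, 192 and 12 and 4.58 to 5.98 TPM (median 5.66) in transplanted mice, and the ratio of means was 18.7. Vcam1 (ENSMUSG00000027962.15, chromosome 3), an immunoglobulin-family adhesion molecule that binds integrin alpha 4 on other cells, was at 10.8 to 23.8 TPM in MuSCs and 0.90 to 2 TPM in muscle. Ncam1 (ENSMUSG00000039542.17, chromosome 9), a neural cell adhesion molecule also present on myoblasts, denervated fibres and Schwann cells, was at 191, 95.6 and 161 TPM before and at 136, 75.5 and 41.6 TPM after in mice 5, 6 and 11, against 1.19 to 2.57 TPM in muscle. Each mouse was lower after than before for Ncam1, and all muscle libraries lay far below.

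The syndecans are heparan sulfate proteoglycans that present growth factors such as fibroblast and hepatocyte growth factor to their receptors. Sdc4 (ENSMUSG00000017009.4, chromosome 2) was at 172, 130 and 134 TPM before and at 112, 114 and 238 TPM after in mice 5, 6 and 11. Sdc3 (ENSMUSG00000025743.15, chromosome 4) was at 105, 83.5 and 61.6 TPM before and at 106, 91.8 and 131 TPM after. After 11 was the highest of the 6 libraries for both. In muscle Sdc4 ranged from 9.06 to 16.2 TPM and Sdc3 from 2.25 to 4.51 TPM, so the ratio of means between MuSCs and muscle was 10.8 for Sdc4 and 27.7 for Sdc3.

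Megf10 (ENSMUSG00000024593.16, chromosome 18), a transmembrane protein with EGF-like repeats that acts in satellite cell proliferation and in engulfment of cell remains, was at 61.1, 21.3 and 89.9 TPM before and at 52.4, 21.1 and 7.32 TPM after in mice 5, 6 and 11. In muscle it stood between 0.04 and 0.16 TPM, and the ratio of means, 447, was the highest of the 10 genes. Cxcr4 (ENSMUSG00000045382.7, chromosome 1), the receptor of the chemokine Cxcl12, which is also carried by leukocytes and endothelium, was at 14.3, 11.3 and 2.59 TPM before and at 13.3, 4.76 and 8.17 TPM after, and at 0.30 to 1.52 TPM in muscle. In Cxcr4 the lowest MuSC library was before 11, which was the highest for Megf10.

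Calcr (ENSMUSG00000023964.16, chromosome 6) had 1 count over the 6 MuSC libraries, in before 5, and 0 counts in the 3 libraries after, although these libraries held 115 M counts in all. The 9 muscle libraries held 33 Calcr counts among 185 M, with 2 to 6 counts in each. Per count sequenced Calcr was 20.5 times as frequent in muscle as in MuSCs (exact 95% interval 3.44 to 835, counting error only). Chodl (ENSMUSG00000022860.16, chromosome 16), a transmembrane C-type lectin known from quiescent satellite cells and from motor neurons, had estimated counts of 2, 0 and 5.72 in before 5, 6 and 11 and of 2, 0 and 0 in after 5, 6 and 11. In muscle Chodl was at 2.15, 2 and 3.02 TPM in sham 3, 192 and 12 and at 0.99 to 2.32 TPM (median 1.72) in transplanted mice. Per count sequenced Chodl was 41.2 times as frequent in muscle (exact 95% interval 22.3 to 86.3, counting error only).

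Set against Pax7 of the same library, the receptors differed further. Calcr had 24.7 ± 19.1 counts for every 100 Pax7 counts in muscle (SD, n = 9), and in MuSCs the pooled 1 count stood beside 8362 Pax7 counts, where even a floor of 3 counts would be 0.0359 per 100. Chodl had 431 ± 100 counts per 100 Pax7 counts in muscle and at most 0.451 in any MuSC library. Ncam1 gave overlapping values, 216 to 885 in MuSCs and 267 to 1114 in muscle. Megf10 had the higher mean in MuSCs, and its ranges overlapped too, at 61.0 to 777 in MuSCs and 19.0 to 129 in muscle. Itga7 stood at 501 ± 37.9 in MuSCs (n = 6) and 7665 ± 3303 in muscle (n = 9). Pax7 itself had only 7 to 24 counts in each muscle library, so these ratios are coarse there.

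**Figure D2:**
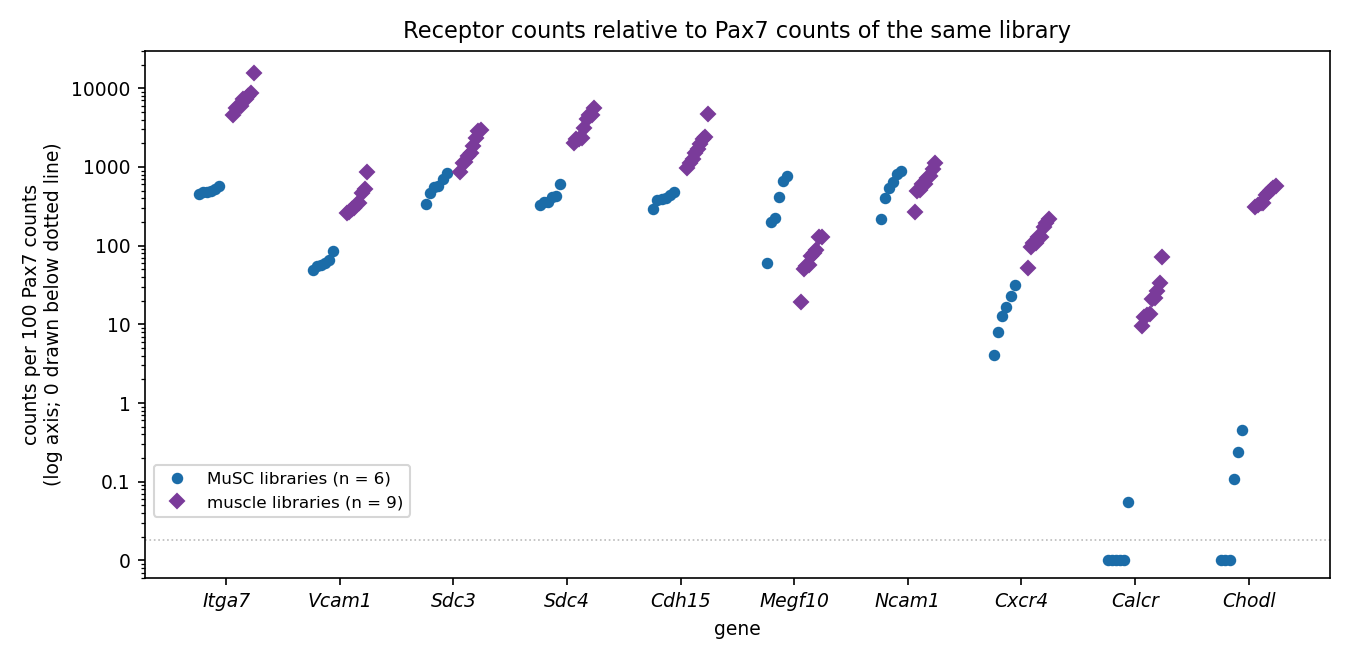
Estimated counts of each receptor (x axis) per 100 Pax7 counts of the same library, on a log axis, for 6 MuSC and 9 muscle libraries. Itga7 is tight in MuSCs (457 to 566), Ncam1 and Megf10 overlap between MuSCs and muscle, and Calcr is at 0 in 5 of 6 MuSC libraries.

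Within a group, the order of the levels was firm only in places. Before transplantation Ncam1 (149 ± 48.5 TPM), Sdc4 (145 ± 23.3) and Itga7 (137 ± 18.4) led and did not differ beyond their SDs, and Itga7 and Cdh15 were the neighbours below that did. After transplantation the order was Sdc4 (154 ± 72.0 TPM), Itga7 (121 ± 20.6), Sdc3 (109 ± 19.7), Cdh15 (106 ± 24.6), Ncam1 (84.5 ± 48.0), Megf10 (26.9 ± 23.1), Vcam1 (13.9 ± 3.70) and Cxcr4 (8.73 ± 4.28), with each neighbour within the spread. In both MuSC groups Cxcr4 stood clear above Chodl. In muscle the first 4 were Itga7, Sdc4, Cdh15 and Sdc3 in both groups, each apart from the next beyond the spread of its libraries, except Sdc3 and Chodl in shams.

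The first comparison set MuSCs sampled away from the graft after transplantation against those sampled before. None of the receptors passed: edgeR's quasi-likelihood test called 0 of the 8 that could be tested at an adjusted p under 0.05, against 0% of all 13512 genes tested, and 0 had an unadjusted p under 0.05, where 2.26% of all genes did (1.55% higher and 0.71% lower). That share moved most with some single libraries: 305 genes had such a p with all 6 libraries and 3545 without after 5. The number was 159 without before 5, 151 without before 11 and 249 without before 6. Without after 6 it was 328 and without after 11 it was 304, with 0 called at an adjusted p under 0.05 each time. DESeq2 also called 0 of the 8, against 16 of all 13512 genes. Log2 differences ran from -0.96 to 0.61, with 5 positive and 3 negative and a median of 0.03, beside 51.4% positive, 48.6% negative and a median of 0.02 over all genes tested. Calcr and Chodl were too low to test. The mouse numbers in the titles were read as separate animals.

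Ncam1 was the only receptor whose 2 groups did not overlap in CPM (counts scaled to a common library size but not to gene length). It was at 502, 389 and 516 CPM before and at 366, 341 and 211 CPM after in mice 5, 6 and 11. In TPM its groups did overlap, at 95.6 to 191 before and 41.6 to 136 after. It was lower after in 3 of 3 mice. The log2 difference was -0.62 ± 0.31 (SE; edgeR adjusted p = 0.873). Groups did not overlap in CPM in 6.33% of all genes tested, so 1 of 8 receptors is not far from that share. Megf10 had the largest difference, -0.96 ± 0.61 (adjusted p = 0.873), from 324 ± 161 CPM before to 166 ± 106 CPM after (SD, n = 3 each). Its 6 values were 322, 165 and 487 CPM before and 272, 168 and 59.7 CPM after in mice 5, 6 and 11. Mice 5 and 6 thus differed little for Megf10 (log2 differences -0.24 and 0.02), and mouse 11 by -3.02. The 2 libraries labelled mouse 11 also differed in Xist, with 17053 counts in before 11 and 520 in after 11. Mouse 5 had 10155 Xist counts before and 12451 after, and mouse 6 had 2283 and 2328. Xist also split by the style of the library names, with 10155 to 17053 counts in the number-first and 520 to 2328 in the letter-first libraries. Mouse 11 has libraries of both styles, so Xist cannot tell a difference of animal from a difference of style. Whether before 11 and after 11 came from the same animal is thus uncertain and was not tested. Without after 5 the group difference of Megf10 was -1.53, and without after 11 or before 11 it was -0.56.

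The same mouse stood out for the syndecans and Cxcr4. Sdc3 averaged 330 ± 105 CPM before and 504 ± 172 CPM after, a log2 difference of 0.61 ± 0.38 (adjusted p = 0.873), and 0.32 without after 11 or 0.37 without before 11. Within mice Sdc3 differed by -0.03 in mouse 5, 0.17 in mouse 6 and 1.69 in mouse 11. Sdc4 differed by 0.38 ± 0.46 overall (adjusted p = 0.873), and by -0.64, -0.15 and 1.42 within mice 5, 6 and 11. Without after 11 the value for Sdc4 was -0.24. Cxcr4 was at 13.0, 16.9 and 2.52 CPM before and at 13.1, 6.81 and 12.6 CPM after, so that mouse 5 did not move, mouse 6 was lower after and mouse 11 higher.

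Itga7 and Cdh15, the adhesion receptors for the basal lamina and the fibre, had log2 differences whose sign varied between mice. Itga7 averaged 356 ± 55.2 CPM before and 371 ± 139 CPM after (0.06 ± 0.36), and was lower after in mouse 5, level in mouse 6 and higher in mouse 11 (-0.72, 0.00 and 0.67). Cdh15 averaged 262 ± 51.5 and 323 ± 134 CPM (0.30 ± 0.39), with -0.44, 0.36 and 0.71 in mice 5, 6 and 11. Vcam1 averaged 45.4 ± 6.76 and 43.7 ± 19.9 CPM (-0.06 ± 0.38). After 5 was the lowest of the 6 libraries for Itga7, Vcam1, Sdc4 and Cdh15, and for Pax7, which was at 41.4 CPM there and 62.7 to 97.9 CPM in the others. That library also had the highest summed level of fibroadipogenic markers, 237 TPM against 44.5 to 89.7 TPM in the other 5, and whether this bears on the receptors was not tested.

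**Figure D3:**
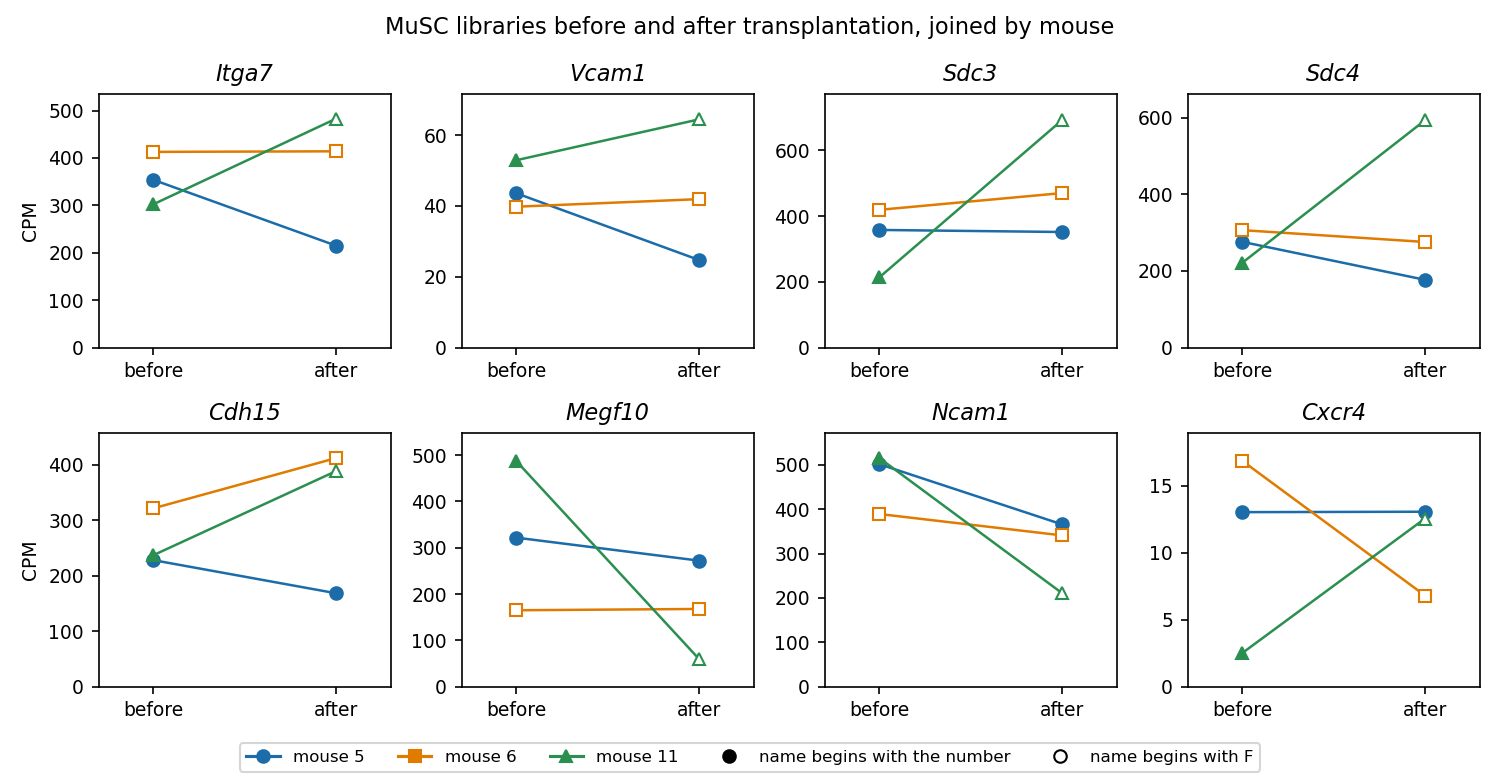
CPM (y axis, from 0) of the 8 tested receptors in MuSCs before and after transplantation, with a line for each mouse and filled symbols for libraries whose names begin with the mouse number. The line of mouse 11 joins the 2 naming styles and is the steepest for Itga7, Sdc3, Sdc4, Cdh15, Megf10 and Ncam1.

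Naming style moved with several of these values. Megf10 was at 52.4 to 89.9 TPM in the 3 libraries named number first and at 7.32 to 21.3 TPM in the 3 named letter first, and Ncam1 at 136 to 191 and 41.6 to 95.6 TPM. The unit mattered: in CPM the styles overlapped for Ncam1 (366 to 516 and 211 to 389), while Itga7, Sdc3 and Cdh15 overlapped in TPM and not in CPM. In CPM the styles did not overlap for Itga7, Sdc3, Cdh15 and Megf10, 4 of the 8 receptors tested, against 56.8% of all genes tested, so this is no mark of the receptors. Mice 5 and 6 each have both libraries in 1 style, and mouse 11 has 1 library in each. With the style as a term, the log2 difference after minus before was -0.55 ± 0.42 for Megf10, -0.49 ± 0.24 for Ncam1, 0.38 ± 0.29 for Sdc3, 0.01 ± 0.41 for Sdc4 and -0.24 ± 0.25 for Itga7 (edgeR adjusted p = 0.999 for each). After 11 also had the lowest share of mitochondrial counts (1.2% against 4.44% to 6.28% in the other 5 MuSC libraries).

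The other comparison set quadriceps muscle of transplanted mice against that of shams, within the 2 tables in which muscle was deposited. The 2-sham table holds transplanted 4, 14 and 94 with sham 3 and 192, and the 1-sham table holds transplanted 5, 6 and 11 with sham 12. Of the 9 receptors tested, edgeR called 0 at an adjusted p under 0.05, against 0% of all 14375 genes, and 0 had an unadjusted p under 0.05, against 7.08% of all genes (3.01% higher and 4.08% lower). The number of such genes was 1018, and leaving out a library gave 499 (without sham 12) to 1357 (without sham 192). DESeq2 called 0 of the 9 receptors as well, against 6 of all 14375 genes. Log2 differences ran from -0.72 to 0.31, with 5 positive, 4 negative and a median of 0.00, and of all genes tested 49.9% were positive and 50.1% negative. Calcr, with 21 counts in the transplanted and 12 in the sham libraries, was too low to test. The groups overlapped for every receptor, and they did not overlap in 2.11% of all genes tested.

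**Figure D4:**
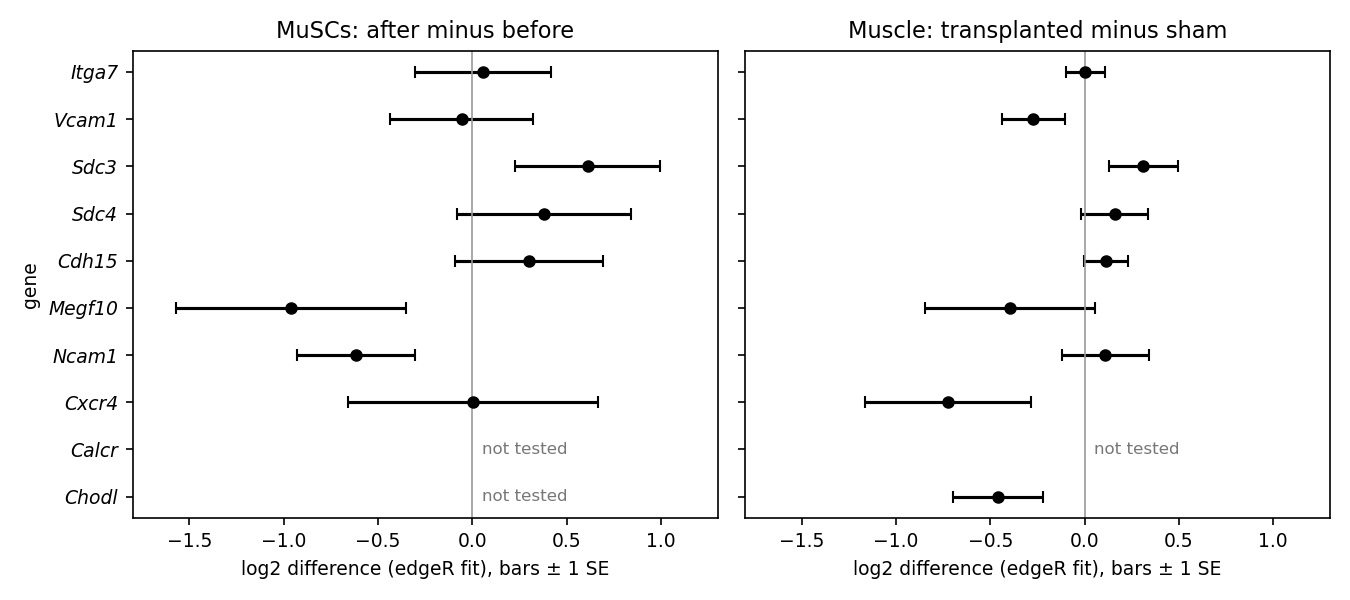
Log2 differences from the edgeR fits (x axis, bars ± 1 SE) for each receptor, after minus before in MuSCs on the left and transplanted minus sham muscle on the right. The bars are narrower in muscle for all 8 receptors tested in both, and no receptor passed the test in either comparison.

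Chodl came closest in muscle by its unadjusted p (0.0771; adjusted p = 0.720 by edgeR). It was at 4.18, 3.50 and 4.99 CPM in sham 3, 192 and 12, and at 1.86 (lowest), 3.65 (median) and 4.52 CPM (highest) in the transplanted mice, a log2 difference of -0.46 ± 0.24. The lowest values were those of transplanted 4 and 14, transplanted 5 was just below the lowest sham, and the other 3 lay inside the sham range. Within the 2-sham table the difference for Chodl was -0.54 ± 0.35 and within the 1-sham table -0.34 ± 0.27. Cxcr4 had the largest difference, -0.72 ± 0.44 (adjusted p = 0.740). It was at 1.39, 1.75 and 1.01 CPM in sham 3, 192 and 12 and at 0.419, 0.870 and 2.12 CPM (lowest, median and highest) in transplanted mice. The estimates for Cxcr4 had unlike signs in the tables, -1.48 ± 0.43 in the 2-sham table and 0.57 ± 0.54 in the 1-sham table. In the latter the lone sham was assumed to vary like the transplanted libraries. Whether the direction depends on the table is not shown, since the difference did not pass. The difference between the tables was 2.04 ± 0.68 (edgeR, table by treatment term, adjusted p = 0.406). These libraries hold only 9 to 44 counts of Cxcr4 each, and leukocyte markers in muscle summed to 24.9 to 41.1 TPM in transplanted mice and 30.9 to 65.0 TPM in shams, whose part in Cxcr4 was not tested.

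Vcam1 was at 3.38, 4.19 and 3.22 CPM in sham 3, 192 and 12 and at 2.58 (lowest), 2.89 (median) and 3.33 CPM (highest) in transplanted mice (-0.27 ± 0.17, adjusted p = 0.742). Only transplanted 94 lay inside the sham range for Vcam1. Endothelial markers, with which Vcam1 is shared, summed to 78.9 to 125 TPM in transplanted and 111 to 131 TPM in sham muscle, and their part was not tested. Itga7 had the log2 difference nearest to 0 in muscle, at 58.8 ± 0.782 CPM in shams (n = 3) and 59.6 ± 7.32 CPM in transplanted mice (n = 6), a difference of 0.00 ± 0.10. Cdh15 differed by 0.11 ± 0.12, Sdc3 by 0.31 ± 0.19, Sdc4 by 0.16 ± 0.18 and Ncam1 by 0.11 ± 0.23. Megf10 was at 0.215 to 0.966 CPM in transplanted and 0.583 to 0.864 CPM in sham muscle (-0.40 ± 0.45), on 4 to 20 counts a library. Pax7, for comparison, differed by -0.46 ± 0.39. Sdc4 was at 33.3 to 34.3 CPM in transplanted 5, 6 and 11 and at 18.2 to 28.7 CPM in transplanted 4, 14 and 94. This split of the transplanted libraries by table was not tested, and the share of all genes that show such a split was not computed. Transplanted minus sham, Sdc4 differed by -0.05 ± 0.24 in the 2-sham table and by 0.50 in the 1-sham table, which has a lone sham. The difference between these values was 0.53 ± 0.33 (edgeR, table by treatment term) and did not pass.

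**Figure D5:**
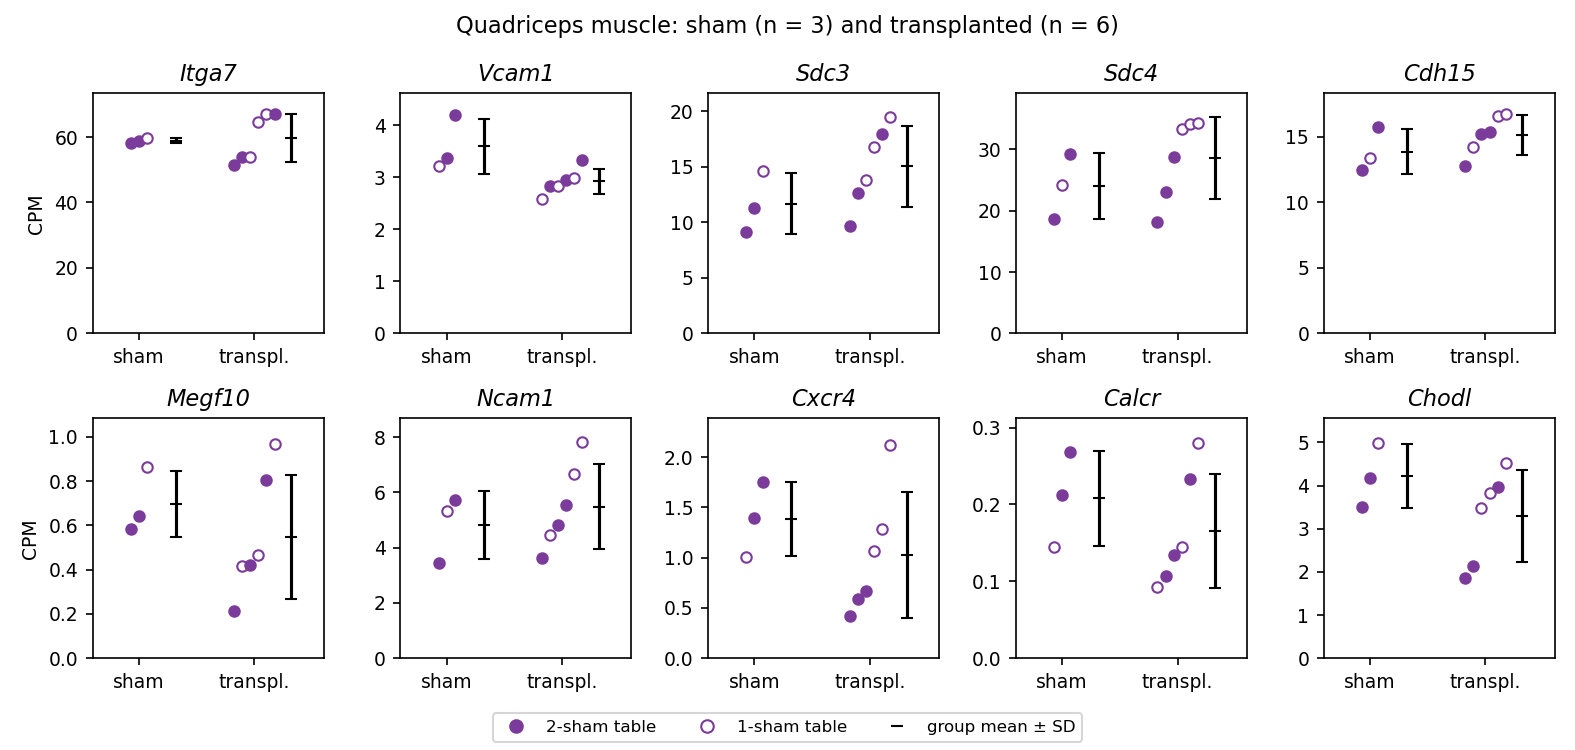
CPM (y axis, from 0) of the 10 receptors in sham and transplanted quadriceps muscle, with filled points for the 2-sham table, open points for the 1-sham table and group means ± SD beside them. Sham and transplanted points overlap in each panel, and the 3 open transplanted points of Sdc4 lie above the filled ones, a split that was not tested.

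The partners of these receptors were read from lists of ligands, co-receptors and relatives. None of their genes passed in either comparison. Among MuSC surface genes outside the 10, 7 of 13 tested were positive after transplantation (median 0.18), led in level by Itgb1, the beta chain that pairs with Itga7 (1026 ± 304 CPM before, 785 ± 529 after), and the tetraspanin Cd81 (325 ± 80.5 and 376 ± 105). Integrin and laminin genes were positive in 7 of 15 (median -0.02), with the matrix protein Fn1 at 1121 ± 295 CPM before and 1722 ± 983 after. Of the Vcam1 ligand chains 2 of 4 were positive (median 0.07), and Itgb7 was at 0.215 ± 0.117 CPM before and 5.76 ± 7.12 after. Syndecan and glypican genes were positive in 6 of 11 (median 0.04), with Sdc1 at 211 ± 73.7 and 344 ± 119 CPM and Gpc1 at 448 ± 137 and 462 ± 96.5 CPM. Sdc1 thus stood among the abundant syndecans beside Sdc3 and Sdc4.

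Cadherins and catenins were positive in 2 of 7 (median -0.11), among them Ctnna1 (522 ± 171 and 440 ± 53.6 CPM) and Ctnnb1 (536 ± 97.6 and 498 ± 63.4 CPM), which tie cadherins to actin. Although Calcr itself was near 0, genes of its signalling and of collagen V, its ligand in the MuSC niche, were measured, with 6 of 12 positive (median 0.04) and Gnas, the stimulatory G protein alpha chain, at 1245 ± 250 and 1487 ± 539 CPM. For the Cxcr4 axis 3 of 3 were positive (median 0.74), with Ackr3, an atypical receptor of Cxcl12, at 79.0 ± 13.0 and 156 ± 64.5 CPM (0.98 ± 0.35, edgeR adjusted p = 0.873). Megf10 relatives and Notch partners were positive in 2 of 8 (median -0.22), with Notch1 at 55.5 ± 14.5 and 47.4 ± 4.26 CPM. Ncam1 relatives were positive in 2 of 5 (median -0.04), with the polysialyltransferase St8sia2, which modifies Ncam1, at 161 ± 16.2 and 120 ± 58.0 CPM. Of the C-type lectins 5 of 5 were positive (median 1.35), with Thbd at 16.2 ± 13.4 and 84.2 ± 73.1 CPM, and of the MuSC transcription factors 2 of 7 (median -0.39), with Myf5 at 215 ± 11.4 and 164 ± 44.6 CPM. Over all genes tested the median was 0.02.

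In muscle the same lists had medians of -0.20 to 0.05, beside 0.00 over all genes tested. Of the other MuSC surface genes 2 of 13 were positive (median -0.17), of integrins and laminins 4 of 16 (-0.06), of Vcam1 ligand chains 2 of 4 (0.00), of syndecan and glypican genes 4 of 12 (-0.10) and of cadherins and catenins 5 of 9 (0.01). Positive counts were 6 of 13 for Calcr partners and collagen V (-0.05), 2 of 4 for the Cxcr4 axis (0.05), 4 of 9 for Megf10 relatives (-0.11), 2 of 5 for Ncam1 relatives (-0.07), 0 of 5 for C-type lectins (-0.20) and 3 of 8 for MuSC transcription factors (-0.15). Gpc1, a glypican, was at 170 ± 10.3 CPM in shams and 205 ± 18.01 CPM in transplanted mice (0.25 ± 0.09, edgeR adjusted p = 0.686). Cxcl12, the Cxcr4 ligand, was at 73.9 ± 8.49 and 87.7 ± 22.0 CPM (0.14 ± 0.14), and Dag1, the dystroglycan that binds laminin on the fibre, at 254 ± 15.2 and 258 ± 19.7 CPM.

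Markers of other cells and of MuSCs were read the same way, and none passed. The MuSC markers are Pax7, Myf5 and the receptors Cdh15, Calcr and Chodl, so these receptors are counted again here. Cdh15 was among those tested in MuSCs, and Cdh15 and Chodl among those tested in muscle. In MuSCs, 2 of 3 endothelial, 2 of 4 fibroadipogenic, 1 of 2 leukocyte, 2 of 4 Schwann, 1 of 4 pericyte and smooth muscle, 0 of 7 mature myofibre, 2 of 6 neuromuscular junction and 2 of 2 tenocyte genes tested were positive, and 2 of 3 MuSC markers. In muscle these counts were 4 of 8, 2 of 9, 0 of 8, 2 of 6, 2 of 6, 8 of 8, 4 of 6 and 0 of 5, and 1 of 4. Over all genes tested 51.4% were positive in MuSCs and 49.9% in muscle. Sham 12 had the highest summed leukocyte (65.0 TPM) and tenocyte (44.4 TPM) markers of the muscle libraries. Acta2, the smooth muscle actin, was high in MuSC libraries (1207 ± 135 CPM before, 960 ± 558 after), and Chrna1, an acetylcholine receptor chain that denervated fibres and myotubes carry, was at 1939 ± 235 and 1916 ± 735 CPM.

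Genes with the pattern nearest to each receptor were sought over the 9 muscle libraries, by Pearson r of log2 CPM centred within each table. Libraries share depth and processing within a table. The genes named were also picked for the highest r among all genes with such symbols, over only 9 libraries. High values can come from that picking alone, so r is a description only. Over these 9 libraries the 2 nearest to Chodl were Nfatc2 (0.97) and the small RNA Rn7sk (0.97), and to Sdc4 Ntn4 (0.98) and Plod1 (0.96). For Cdh15 the nearest was Gstp2 (0.98). The 2 nearest genes of Vcam1 were Plk2 (0.97) and Hilpda (0.96), of Sdc3 Vash1 (0.97) and Zscan18 (0.96), of Itga7 P3h2 (0.95) and Sema6c (0.94), of Cxcr4 Pheta2 (0.94) and Nsf (0.94), and of Ncam1 Stoml1 (0.94) and Lamp1 (0.94). Pax7 itself, named after its values were seen, gave 0.84 with Chodl, 0.69 with Itga7 and -0.60 with Cdh15. With Vcam1 it gave 0.56, with Cxcr4 0.55, with Sdc4 0.37, with Ncam1 0.21 and with Sdc3 0.12. These values rest on 7 to 24 Pax7 counts in each muscle library.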

How the data were processed

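RNA was extracted with Trizol and libraries came from the NEBNext Ultra kit, per the labels' protocols. The authors deposited estimated counts per gene, some of them not whole, and TPM, which is scaled for gene length and library size, per the file headers. GRCm38 and mm10 are named in the submitters' processing notes. No aligner, quantifier or annotation is named in the sources used here. File coordinates are not printed, since their build is uncertain. Another 3 columns belonged to no labelled sample and were not used.

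Estimated counts were rounded and tested with edgeR 4.0.16 (quasi-likelihood, filterByExpr with a minimum count of 10, TMM, Benjamini-Hochberg over all genes, 2-sided, threshold 0.05) in R 4.3.3: MuSCs without covariate, and muscle with the deposited table as a term. SE is the log2 difference over the root of F. DESeq2 1.42.0, other scalings, no filter, the mouse block, naming style and left-out libraries were alternatives. The test was checked on simulated data. Pairs were compared within a group and a deposited table, and none of those agreed within sampling noise. MuSC libraries of the same mouse were paired by the labels' mouse numbers and the word autologous; deviations from group means correlated at 0.30 in mouse 5, 0.36 in mouse 6 and -0.40 in mouse 11. Pairs from different mice that share a naming style were higher for after 11 with before 6 (0.55) and after 5 with before 11 (0.49).

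The members and lists were chosen with earlier results of these data known. Named genes are all 10 receptors, and from each list genes among the 2 with the highest mean CPM. Near matches are the 2 genes of highest r for receptors with a mean of at least 1 CPM in muscle, log2 CPM having a prior count of 2. A near match of Cdh15 is not reported here. Counting intervals are exact (Clopper-Pearson) and cover counting error only.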

Additional observations from a re-analysis of the deposited data

How the results depend on the processing

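No receptor passed the threshold under any alternative run, in either comparison. Of the single-receptor values, 87 of 104 in MuSCs and 132 of 144 in muscle kept their direction, and the rest crossed 0 without passing. In MuSCs these were Itga7 with library totals alone (-0.091), with the replicate block by mouse (-0.012) and with the naming style as a term (-0.24), Cdh15 with the style (-0.075), and Cxcr4 with library totals (-0.054), no filter (-0.029), the style (-0.028) and without both after 5 and after 11 (-0.65, an alternative chosen after seeing the data). Leaving out a library gave -0.18 to 0.32 for Itga7 (below 0 without after 6, after 11 or before 11), -0.44 to 0.21 for Vcam1 (above 0 without after 5 or before 11), -0.24 to 0.68 for Sdc4 (below 0 without after 11) and -0.48 to 0.48 for Cxcr4 (below 0 without after 5, after 11 or before 11). In muscle Itga7 was at -0.0016 with DESeq2, -0.0015 with relative log expression factors, -0.10 with library totals and -0.029 in the 2-sham table, where Sdc4 was at -0.045, and Cxcr4 was at 0.57 in the 1-sham table. Leaving out a library gave -0.065 to 0.045 for Itga7 (below 0 without transplanted 5, 11 or 94 or sham 12), -0.041 to 0.41 for Sdc4 (below 0 without sham 12) and -0.031 to 0.34 for Ncam1 (below 0 without sham 3). Other receptors kept their sign but not their size when a library was left out. In MuSCs Megf10 ran from -1.53 (without after 5) to -0.56 (without before 11), Sdc3 from 0.32 (without after 11) to 0.82 (without before 6), Cdh15 from 0.090 (without after 6) to 0.59 (without after 5) and Ncam1 from -0.78 (without after 5) to -0.41 (without after 11). In muscle Cxcr4 ran from -1.48 (without sham 12) to -0.41 (without sham 192), Megf10 from -0.71 (without transplanted 14) to -0.23 (without transplanted 94), Sdc3 from 0.15 (without transplanted 14) to 0.40 (without transplanted 4), Cdh15 from 0.033 (without sham 12) to 0.23 (without sham 192), Vcam1 from -0.33 (without sham 3) to -0.17 (without sham 192) and Chodl from -0.67 (without transplanted 94) to -0.34 (without transplanted 4). Library totals alone moved the median of all genes to -0.09 in MuSCs and -0.11 in muscle.

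Over all genes edgeR called 0 in each comparison. In MuSCs DESeq2 called 16 genes and the fit without both after 5 and after 11 called 4, while the paired fit with the mouse block called 0, as did each left-out library (0 to 0). In muscle DESeq2 called 6 genes, no filter 12, the fit within the 2-sham table called 1 and that within the 1-sham table called 41, and leaving out a library gave 0 to 4 (2 without transplanted 94, 4 without sham 192). None of these calls is a receptor. The cause of these shifts was not tested. Counts were few for Calcr throughout, for Chodl in MuSCs, and for Megf10 and Cxcr4 in muscle, where 1 count is 0.0435 to 0.0553 CPM on unscaled totals.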
